A study of Mus musculus with 4 samples.

Results

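The protocadherin genes were taken as the rows of the deposited expression table whose gene name starts with Pcdh, and 70 of its 40630 genes met this rule. Of these, 58 belong to the alpha, beta and gamma clusters, which follow each other on mouse chromosome 18, and 12 are non-clustered. The data are 4 RNA-seq libraries of cortex dissected from C57BL/6 mouse embryos at E13.5, a stage at which cortical progenitors are producing neurons. Replicates 4 and 5 are labelled Upf2fl/fl Emx1-Cre+ and are called cKO-labelled here, and replicates 8 and 9 are labelled Upf2fl/+ Emx1-Cre- and are called controls. The series design describes the controls as littermates. The groups differ in Cre and in the number of floxed alleles together, and the controls carry a floxed allele but no recombinase. Emx1-Cre drives recombination in progenitors of the dorsal telencephalon and their descendants, so meningeal, vascular and microglial cells and interneurons that enter from the ventral forebrain keep Upf2. Whether each library is a separate embryo is not stated in the labels, so the p-values measure only the spread between these libraries, which may be technical.

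Protocadherins are the most numerous cadherin-type adhesion molecules of the vertebrate nervous system. In the alpha and gamma clusters each gene has a large variable exon with its own promoter, which encodes the extracellular and transmembrane parts and is spliced to small constant exons shared by the whole cluster, while beta genes consist of a single coding exon. A neuron expresses a few variable exons, chosen by promoter methylation and by looping through CTCF and cohesin, and the resulting mixture of proteins on its surface recognises the same mixture on other membranes, which lets its branches avoid each other. Non-clustered protocadherins of the delta-1 and delta-2 groups are expressed in regional patterns and act in cell sorting, migration and axon growth. Upf2 encodes an adaptor of nonsense-mediated mRNA decay (NMD), which removes transcripts whose stop codon lies upstream of an exon junction.

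The 3 promoter windows shown here belong to the delta-2 genes Pcdh8, Pcdh10 and Pcdh18, the delta-2 members with the largest differences between the groups in either direction. They are RefSeq windows on build GRCm38.p6, written 5′ to 3′ on the strand of the gene, and run from 250 bases before to 50 bases after the RefSeq gene start, which can differ by some bases from the GENCODE start given with each gene. Capitals mark a CCAAT box (CCAAT or its reverse complement ATTGG) or a TATA box (TATAAA or its reverse complement TTTATA), searched on both strands. The window of Pcdh8 is chr14:79771263-79771562 (minus strand), that of Pcdh10 is chr3:45378148-45378447 (plus strand) and that of Pcdh18 is chr3:49757267-49757566 (minus strand).
Pcdh8: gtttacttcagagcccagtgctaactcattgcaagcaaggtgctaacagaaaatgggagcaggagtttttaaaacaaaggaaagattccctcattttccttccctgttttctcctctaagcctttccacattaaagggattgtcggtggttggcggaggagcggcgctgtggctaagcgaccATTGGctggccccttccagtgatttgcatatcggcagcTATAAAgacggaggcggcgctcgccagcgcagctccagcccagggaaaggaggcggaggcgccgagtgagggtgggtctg
Pcdh10: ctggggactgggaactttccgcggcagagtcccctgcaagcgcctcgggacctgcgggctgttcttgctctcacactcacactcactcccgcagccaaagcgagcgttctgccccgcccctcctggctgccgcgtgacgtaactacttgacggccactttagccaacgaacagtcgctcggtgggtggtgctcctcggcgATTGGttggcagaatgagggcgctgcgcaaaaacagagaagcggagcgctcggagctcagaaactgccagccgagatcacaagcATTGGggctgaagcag
Pcdh18: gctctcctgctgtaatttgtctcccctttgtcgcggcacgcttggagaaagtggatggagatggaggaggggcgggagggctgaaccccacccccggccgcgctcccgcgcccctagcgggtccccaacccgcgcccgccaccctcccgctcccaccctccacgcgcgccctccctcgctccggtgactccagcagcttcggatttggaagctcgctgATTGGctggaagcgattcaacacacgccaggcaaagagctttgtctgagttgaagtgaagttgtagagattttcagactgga
The CCAAT box, a motif bound by the factor NF-Y, was added to the search after these sequences had been read. It occurred in all 5 delta-2 windows (Pcdh8, Pcdh10, Pcdh17, Pcdh18 and Pcdh19) and in 37.41% of the 32851 RefSeq windows of the mouse genome. It was not particular to the delta-2 group, since the windows of Pcdh9, Pcdh15 and Pcdh20 held it as well and Pcdh7 alone of the 9 members with a window lacked it. Pcdh8 and, outside the delta-2 group, Pcdh15 also held a TATA box, which 13.62% of all windows held, and 5.312% of all windows held both. The GC content of the windows was 54.33% for Pcdh8, 62.33% for Pcdh10 and 63% for Pcdh18, against a median of 52.67% over all windows. The sequence table gave windows for 9 of the 70 members.

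Expression was deposited as TPM (transcripts per 1000000, a level per unit of transcript length that sums to the same total in each library). From these values 33537843 and 36453920 reads were recovered for cKO-labelled replicates 4 and 5, and 41680052 and 38274835 for control replicates 8 and 9. Upf2 itself, the targeted gene, was at 27.8 and 42.2 TPM in the cKO-labelled pair and at 23.7 and 41.3 TPM in the controls, a log2 difference of 0.13 (limma, adjusted p = 0.853). A whole-gene value may not see a deleted segment, so it does not check the labels. Radial glia markers summed to 2941 and 2952 TPM in the cKO-labelled pair and to 2610 and 3668 TPM in the controls, and projection neuron markers to 873 and 1084 against 916 and 1123 TPM, so cortical cells were present in all 4 libraries. Of the 8 radial glia markers, 1 was called lower and none higher. This was Hes1, at 31.9 and 40.5 TPM in the cKO-labelled pair and 71.4 and 85.5 TPM in the controls (limma adjusted p = 0.0273). Of the 8 projection neuron markers none was called. The groups also differed in other markers. Summed markers of cortical hem and choroid plexus were at 6.40 and 9.32 TPM in the cKO-labelled libraries against 2103 and 2311 TPM in the controls, with 10 of 11 lower, none higher and Kcne2 at 0 in cKO-labelled replicate 4. Meningeal markers were at 16.4 and 62.2 against 467 and 320 TPM, with 10 of 10 lower and none at 0. Ganglionic eminence markers were at 706 and 332 against 70.7 and 202 TPM, with 12 of 12 higher and none at 0. Pan-neuronal markers were at 6958 and 5612 against 3861 and 2744 TPM, of which Tubb3 alone gave 5750 and 4485 against 3148 and 1752 TPM. The log2 difference was above 0 in 8 of these 10 markers and below 0 in 2. By limma 0 of 10 passed the test, and 4 had an unadjusted p under 0.05. Intermediate progenitor markers were at 1317 and 1638 against 862 and 889 TPM (2 of 6 higher), Cajal-Retzius markers at 84.6 and 175 against 98.9 and 115 TPM (none called; 0 at an unadjusted p under 0.05), and microglia and macrophage markers at 48.1 and 61.4 against 164 and 74.1 TPM (2 of 8 lower). Of all tested genes, 2.90% were called higher, 5.24% were called lower and 22.8% had an unadjusted p under 0.05 (limma). In dissected tissue, fewer cells of a type and less RNA per cell cannot be told apart. The labels give no borders for the dissection, and a difference in the region dissected and a difference of genotype cannot be told apart in any comparison of these groups.

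Across the family, 3 members changed. Pcdh8 and Pcdh1 were higher in the cKO-labelled libraries, Pcdh18 was lower, and none of the clustered genes passed the test. Each fold change given is the mean log2(TPM + 1) of the cKO-labelled pair minus that of the controls, and for low genes this scale makes changes look smaller. Genes with a mean of at least 1 TPM over the 4 libraries were tested (limma with Benjamini-Hochberg adjustment over all 15107 such genes), and a gene was called at an adjusted p under 0.05. This left 43 members tested and 27 not tested for low values. Of the 43, 2 were called higher, where 2.90% of all tested genes were, and 1 was called lower, where 5.24% of all tested genes were. In either direction 8.14% of all tested genes were called, and 3 of 43 is near that background. At an unadjusted p under 0.05 there were 8 members, against 22.8% of all tested genes.

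The median log2 fold change over the 43 tested members was 0.31, and that over all tested genes was −0.16, with quartiles of −0.54 and 0.28. The fold change was above 0 in 32 of 43 members and in 40.7% of all tested genes. Both cKO-labelled libraries lay above both controls in 24 of 43 members, where 23.5% of all tested genes did so, and below both in 4 of 43, where 34.1% did so. Summed over all 70 members, TPM was 375 and 332 in the cKO-labelled pair and 264 and 273 in the controls, a ratio of means of 1.32.

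**Figure D1:**
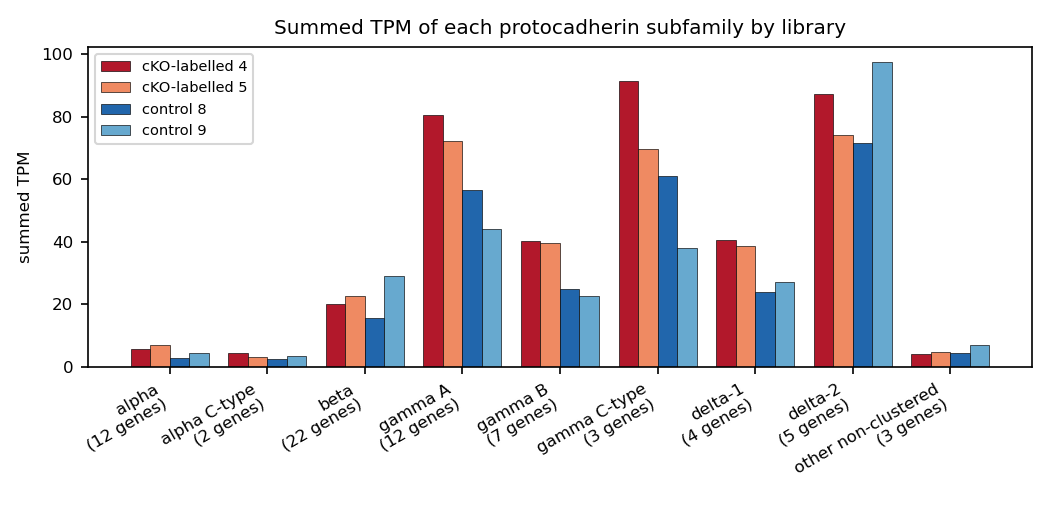
Summed TPM of each protocadherin subfamily (y axis, linear, from 0) in each library, with the number of genes in brackets; each bar is 1 library and there are no error bars. The alpha, gamma and delta-1 bars are taller in both cKO-labelled libraries than in both controls, while alpha C-type bars overlap. Beta and delta-2 bars of the cKO-labelled libraries lie between the controls.

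Of the delta-2 genes Pcdh8 was called higher and Pcdh18 lower. Pcdh8, known as arcadlin, is induced by activity in rat neurons, where it takes N-cadherin off the membrane. It was at 23.4 and 18.7 TPM in replicates 4 and 5 of the cKO-labelled group and at 6.89 and 6.16 TPM in control replicates 8 and 9, from 1084, 937, 399 and 310 reads. The groups stand apart, and the gap between them is wider than the spread within either. Pcdh8 (ENSMUSG00000036422.10, chromosome 14, 79766775 to 79771312, minus strand, GENCODE M21 on GRCm38) was 3.23-fold higher in mean TPM, with a log2 fold change of 1.55 (SE 0.39, n = 2 and 2, limma adjusted p = 0.00217). Pcdh8 lost its call without cKO-labelled replicate 4 (log2 fold change 1.39) or 5 (1.70). In these fits the spread is that of the controls alone, pooled over all tested genes.

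Pcdh18, a delta-2 member that binds the reelin-pathway adaptor Dab1, was at 10.4 and 10.6 TPM in the cKO-labelled pair and at 17.6 and 34.2 TPM in the controls. The cKO-labelled libraries nearly coincided, and the controls were both higher but far from each other. Pcdh18 (ENSMUSG00000037892.13, chromosome 3, 49743296 to 49757325, minus strand) fell by 1.15 on the log2 scale (SE 0.38, n = 2 and 2, limma adjusted p = 0.0351). Without control replicate 9 the log2 fold change was −0.69 and was not called (adjusted p = 0.162). Without cKO-labelled replicate 4 or 5 the log2 fold changes of −1.14 and −1.16 were not called either (adjusted p = 0.9998 and 0.825). Markers of meninges and of cortical hem and choroid plexus were lower in the same libraries, with the sums given above, and their part in the Pcdh18 result was not tested.

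Pcdh10, which guides growing axons through the striatum and recruits the actin regulator Nap1, was at 18.8 and 14.2 TPM in the cKO-labelled pair and at 6.70 and 10.4 TPM in the controls. Both cKO-labelled libraries were higher than both controls. The log2 fold change of 0.89 (SE 0.39) was not called (limma adjusted p = 0.138). It was called under 6 of 15 alternative settings, among them without control replicate 9 (1.17, adjusted p = 0.0448) and after removal of each library's trend against GC content (1.24, 0.0114). Ganglionic eminence markers were higher in the same libraries, and their part in this difference was not tested.

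Pcdh19, the X-linked gene mutated in an epilepsy of girls and the most abundant delta-2 member, was at 28.5 and 24.9 TPM in the cKO-labelled pair and at 34.9 and 41.3 TPM in the controls. The groups did not overlap, but the log2 difference of −0.50 was not called (limma adjusted p = 0.398). After GC trend removal it was −0.05 (limma adjusted p = 0.900), and without control replicate 8 it was −0.61. Pcdh17, which organises presynaptic terminals of corticostriatal pathways, was at 6.06, 5.72, 5.66 and 5.38 TPM in cKO-labelled 4 and 5 and control 8 and 9. These values nearly coincide, with a log2 difference of 0.08 (SE 0.38, adjusted p = 0.917). After GC trend removal the difference was 0.53 and not called (limma adjusted p = 0.229), and with control replicate 8 also left out it was 0.90. As higher and lower members offset each other, the summed delta-2 TPM of 87.2 and 74.1 in the cKO-labelled libraries lay within the controls at 71.7 and 97.4.

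Among the delta-1 genes, whose cytoplasmic tails carry a motif that binds protein phosphatase 1, Pcdh1 was called higher. Pcdh1, an adhesion protein of epithelia and brain that also serves as an entry receptor of some hantaviruses, was at 26.7 and 19.98 TPM in the cKO-labelled pair and at 11.1 and 6.63 TPM in the controls. Every cKO-labelled value exceeded every control value, though the controls themselves differed. Pcdh1 (ENSMUSG00000051375.15, chromosome 18, 38185914 to 38212053, minus strand) lies downstream of the clusters and had a log2 fold change of 1.33 (SE 0.38, n = 2 and 2, limma adjusted p = 0.0114). Without control replicate 9 it was 0.99 and missed the threshold (adjusted p = 0.0576), as it did without cKO-labelled replicate 4 or 5, at 1.12 and 1.53 (0.9998 and 0.543).

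The other delta-1 genes were not called. Pcdh9 was at 9.10 and 11.4 TPM in the cKO-labelled pair and at 6.35 and 11.2 TPM in the controls, which overlap (0.24 on the log2 scale, adjusted p = 0.732). Pcdh7, which binds protein phosphatase 1 and the histone chaperone SET in human cells, was at 3.02 and 4.86 against 5.41 and 7.81 TPM. All its cKO-labelled values were below the controls, and the log2 difference was −0.63 (adjusted p = 0.304). Pcdh11x was at 1.68 and 2.50 against 0.899 and 1.50 TPM, higher in both cKO-labelled libraries (0.49, adjusted p = 0.369). After removal of the GC trend, Pcdh9 (0.70, adjusted p = 0.0384) and Pcdh11x (1.05, 0.0362) were called higher.

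The remaining non-clustered genes were low and not called. Pcdh12, an endothelial protocadherin, was at 2.996 and 1.91 TPM in the cKO-labelled pair and at 3.08 and 3.25 TPM in the controls, with a log2 difference of −0.29 (limma adjusted p = 0.644). Endothelium and pericyte markers summed to 146 and 123 against 206 and 141 TPM, with 1 of 10 called lower, and their part in the Pcdh12 values was not tested. Pcdh20 was at 0.857 and 2.56 against 0.898 and 2.51 TPM, so that cKO-labelled replicate 4 matched control 8 and cKO-labelled replicate 5 matched control 9. Pcdh15, part of the tip link of inner-ear hair cells, was at 0.169 and 0.396 against 0.619 and 1.11 TPM and was not tested.

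**Figure D2:**
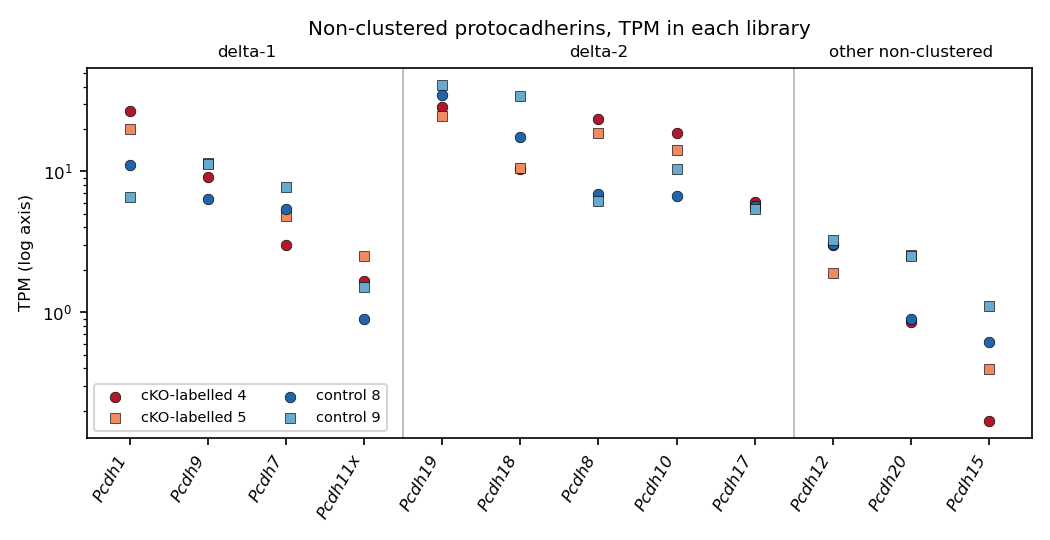
TPM of the 12 non-clustered protocadherins (y axis, log scale), with each point 1 library and genes ordered by group and mean level. Pcdh8 and Pcdh1 are higher in both cKO-labelled libraries, Pcdh18 is lower in both, and the points of Pcdh17 nearly coincide.

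In the clusters, reads shared by several genes had to be considered first. The 12 alpha and 2 alpha C-type genes, like the 22 gamma genes, overlap each other at their constant exons, and in the deposited values such shared sequence was not counted. Among coding genes whose every exonic base lies in exons of other genes on the same strand, 0 of 113 were above 0 in any library, while 15479 of 19614 genes with no shared base (78.92%) were. The values of alpha and gamma genes therefore come from their own variable exons, and reads of the constant exons are not represented. TPM was divided by the full exon length, of which 38.9% to 91.4% was shared in alpha and 31.5% to 66.8% in gamma A and gamma B genes, so it understates levels of these genes beside beta and non-clustered ones. The ratio of TPM between the groups does not depend on that length. Pcdha4, named here because of its values, has 494 unshared bases and was listed at 0 in all 4 libraries.

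The gamma genes, which span positions 37661793 to 37841873 of chromosome 18, were the most abundant cluster, and their fold changes pointed one way although none was called. They comprise 12 gamma A, 7 gamma B and 3 gamma C-type genes, and 21 of 22 were tested. All 21 had a fold change above 0 in the analysis as reported and under median-of-ratios scaling, quantile normalization and GC trend removal, and 20 had one without control replicate 9. Their median log2 fold change was 0.55, beside −0.16 for all tested genes, and without control replicate 9 it was 0.35, beside −0.05. Both cKO-labelled libraries were above both controls in 19 of 21, the exceptions being Pcdhga5 and Pcdhga9, and in 23.5% of all tested genes. No gamma gene was called (limma, 0 of 21), and 4 had an unadjusted p under 0.05, where 22.8% of all tested genes did. Summed gamma TPM was 212 and 181 in the cKO-labelled pair and 143 and 105 in the controls, a ratio of 1.59. As a share of all protocadherin TPM, gamma genes made up 56.7% and 54.6% in the cKO-labelled pair and 54.1% and 38.3% in the controls, so that control replicate 9 stood below the other libraries.

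Pcdhgc3 was the most abundant protocadherin in the table. It promotes dendrite branching and binds the Wnt-pathway scaffold Axin1. Its level was 83.2 and 60.7 TPM in the cKO-labelled pair and 55.6 and 34.0 TPM in the controls. The lower cKO-labelled library was close to the higher control, and the log2 difference of 0.70 (SE 0.35, adjusted p = 0.212) was not called. It was 0.35 without control replicate 9 (adjusted p = 0.382) and 1.04, called, without control replicate 8 (0.00562). Pcdhgc4, the gamma isoform required for the survival of neurons in mice, was at 7.10 and 7.77 against 4.66 and 3.35 TPM. Its groups did not overlap, and the log2 difference was 0.76 (SE 0.38, limma adjusted p = 0.212). Pcdhgc5 was near 1 TPM throughout, at 1.13 and 0.998 against 0.883 and 0.745 TPM, and was not tested.

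Among gamma A genes Pcdhga11 was the most abundant, at 17.6 and 15.2 TPM in the cKO-labelled pair and 10.2 and 7.46 TPM in the controls (log2 difference 0.83, SE 0.39, adjusted p = 0.172). Pcdhga7 followed at 9.33 and 8.70 against 5.87 and 4.81 TPM (0.66, adjusted p = 0.289). In both genes the cKO-labelled libraries agreed closely and lay above the controls. The 12 gamma A differences ranged from 0.15 to 0.83 on the log2 scale, and their summed TPM was 80.6 and 72.3 against 56.6 and 44.0, a ratio of 1.52. After removal of the GC trend Pcdhga11 was at 0.79 and called, which it was not before.

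Among the gamma B genes Pcdhgb6 was the most abundant, at 15.6 and 14.2 TPM in the cKO-labelled pair and at 8.39 and 8.40 TPM in the controls (log2 difference 0.76, SE 0.39, limma adjusted p = 0.220). Pcdhgb7 was at 7.24 and 5.81 against 5.33 and 4.23 TPM (0.38, adjusted p = 0.553). The gamma B member with the smallest adjusted p was Pcdhgb1, at 3.72 and 4.14 against 1.90 and 1.53 TPM (0.86, SE 0.36, adjusted p = 0.117). It was called under median-of-ratios scaling (0.98, adjusted p = 0.0348) and under quantile normalization (1.16, 0.0108), the latter together with Pcdhgb8 (0.97, 0.0312) and Pcdhgc4 (1.02, 0.0445). Pcdhgb8 is annotated as a polymorphic pseudogene and was low, at 1.34 and 2.26 against 1.12 and 0.508 TPM, from 63, 115, 66 and 26 reads. In all 7 genes both cKO-labelled libraries exceeded both controls. The summed TPM was 40.2 and 39.6 against 24.8 and 22.5, a ratio of 1.69. Of 10 pan-neuronal markers, none was called, and 6 had both cKO-labelled libraries above both controls (23.5% of all tested genes did); their part in the gamma differences was not tested.

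**Figure D3:**
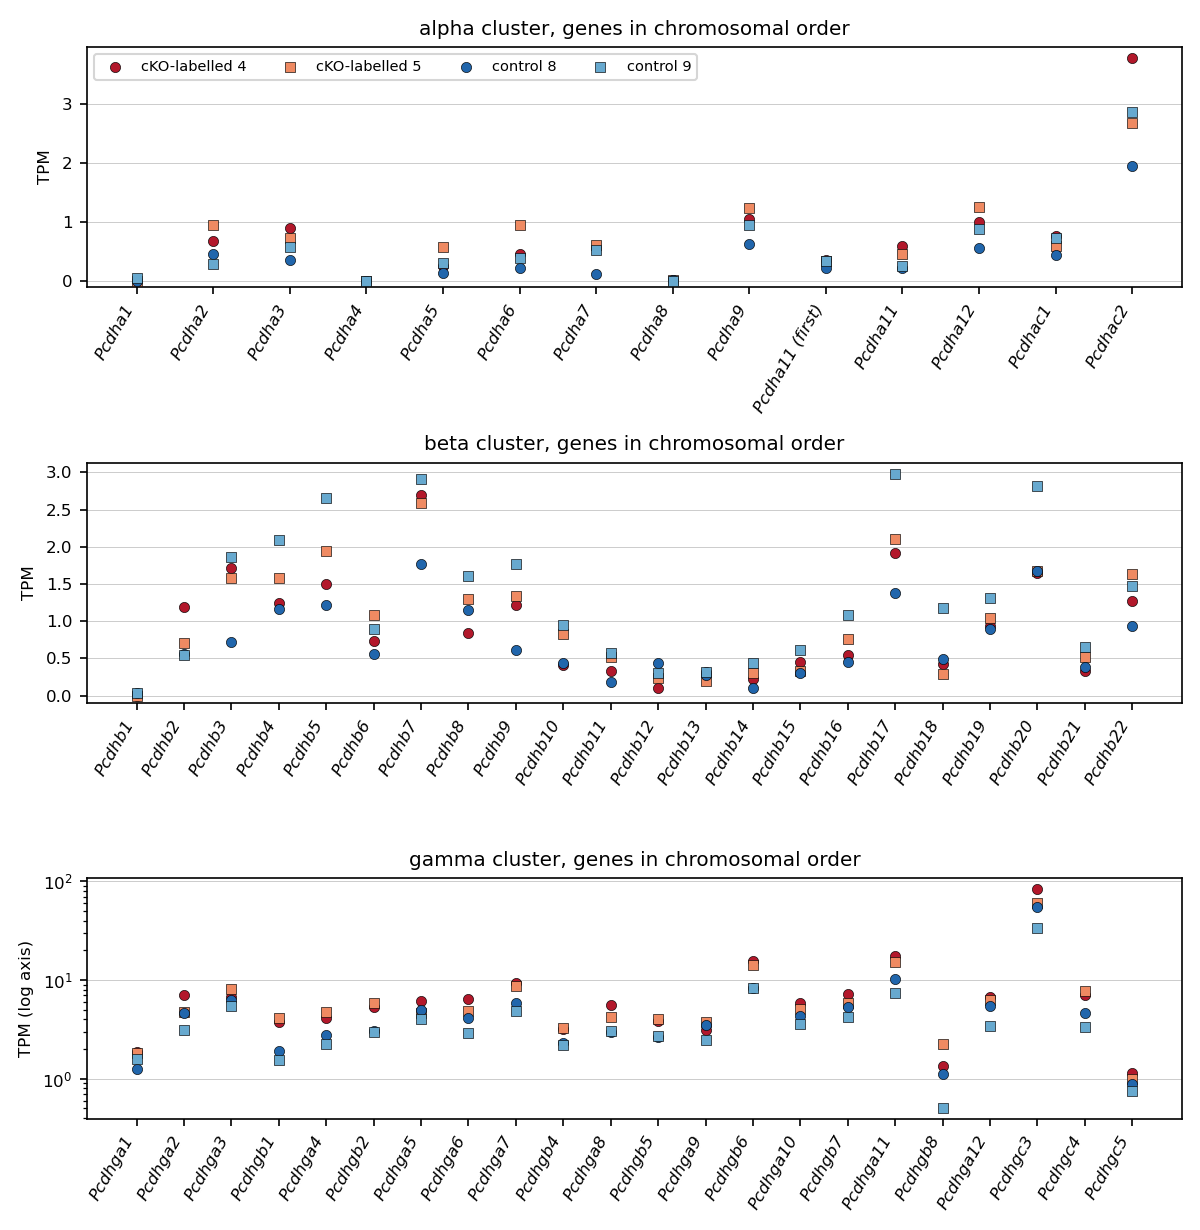
TPM of the alpha, beta and gamma protocadherins in chromosomal order (y axes, linear for alpha and beta and log scale for gamma), with each point 1 library; the Pcdha11 row marked as the first is the entry ENSMUSG00000007440.10. In the gamma panel red points lie above blue ones for most genes, and in the beta panel control replicate 9 is often highest and control replicate 8 lowest.

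Beta genes, which lack the constant exons and lie between the alpha and gamma clusters from position 37264938 to 37524479, did not share the direction of the gamma genes. Of 22, 10 were tested and none was called (limma; 0 at an unadjusted p under 0.05). Their fold changes ranged from −0.26 to 0.25, with a median of −0.05 and 4 above 0. That direction flips with the scaling, since 8 of 10 were above 0 under median-of-ratios scaling, and 10 of 10 under quantile normalization and after GC trend removal. In 7 of the 10, both cKO-labelled libraries lay between the controls, where 15.8% of all tested genes did so, and this held for 11 of all 22.

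The most abundant beta gene, Pcdhb7, was at 2.69 and 2.59 TPM in the cKO-labelled pair and at 1.77 and 2.91 TPM in the controls, from 79 to 113 reads (log2 difference 0.15, adjusted p = 0.826). Pcdhb17 was at 1.92 and 2.10 against 1.38 and 2.98 TPM (−0.03, adjusted p = 0.963). Both cKO-labelled values of these genes fell inside the range of the controls. Control replicate 9 was above control replicate 8 in 20 of the 22 beta genes and below it in 18 of the 22 gamma genes. Summed beta TPM was 20.05 and 22.6 in the cKO-labelled pair and 15.7 and 29.0 in the controls. Pcdhb1, named because of its values, had 0 reads in both cKO-labelled libraries and 1 read in each control, under the floor of 3 reads in every library.

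Alpha genes were low at this stage. None of the 12 alpha genes reached a mean of 1 TPM and none was tested, and each library held 0 to 74 reads per gene. The most abundant, Pcdha9, was at 1.05 and 1.24 TPM in the cKO-labelled pair and at 0.631 and 0.946 TPM in the controls, and Pcdha12 at 0.993 and 1.26 against 0.558 and 0.879 TPM. Both genes were higher in each cKO-labelled library than in either control. This order was seen in 9 of 12 alpha genes, and in 17.6% of the 26133 genes above 0 in any library. For Pcdha8, which is among the 9, it rests on 1, 1, 1 and 0 reads. Summed alpha TPM was 5.89 and 7.12 against 2.96 and 4.56, a ratio of 1.73. Pcdha1 was listed at 0 except for 3 reads in control replicate 9. Pcdha8, Pcdha1 and Pcdha4 are named because of their values.

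The C-type alpha genes, whose promoters follow the type of neuron rather than a stochastic choice, were led by Pcdhac2, which is needed for the spacing of serotonergic axons in mice. It was at 3.77 and 2.66 TPM in the cKO-labelled pair and at 1.94 and 2.85 TPM in the controls. These ranges overlap, and the log2 difference was 0.31 (SE 0.36, limma adjusted p = 0.609). Pcdhac1 was at 0.760 and 0.602 against 0.448 and 0.733 TPM and was not tested.

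**Figure D4:**
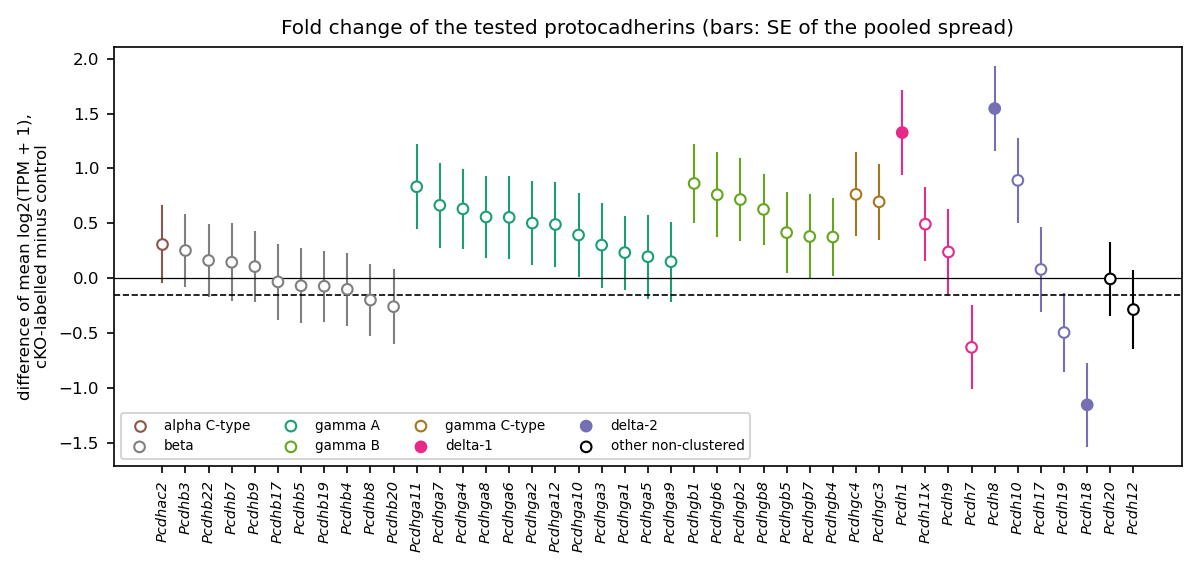
Mean log2(TPM + 1) of the cKO-labelled pair minus that of the controls (y axis), for the 43 tested protocadherins by subfamily; bars are the SE from the spread pooled over genes, filled points were called, and the dashed line is the median of all tested genes at −0.16. The 21 gamma points lie above 0 and are open, and the filled points are Pcdh8, Pcdh1 and Pcdh18.

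The fold changes of the members followed the GC content of their transcripts. Across the 43 tested members, GC content and log2 fold change had a Spearman correlation of 0.69, and across the 32 clustered ones of 0.82. Across the 11 non-clustered ones it was 0.19, with a Pearson correlation of 0.55. Across 14959 tested genes the Spearman correlation was 0.55. GC content also went with the difference between the controls, since the log2 difference of control replicate 9 minus 8 had a correlation of −0.78 over all tested genes and of −0.77 over the 43 members. These points share libraries, and genes of a cluster resemble each other in sequence, so the correlations are descriptions. Gamma genes had a GC content of 49.9% to 54.6% and beta genes of 39.1% to 49.0%. Pcdh8 and Pcdh1, the 2 members called higher, had the highest GC content of the family, at 59.3% and 58.8%.

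Set beside genes of like GC content, most members lay above the median of their range. Between 50% and 54% GC lay 19 members, mostly neighbouring gamma genes. Their median log2 fold change was 0.50 and that of all 3223 tested genes 0.00, with quartiles of −0.35 and 0.32. Between 46% and 50%, 11 members had a median of 0.11 against −0.30, and between 42% and 46%, 7 members had −0.01 against −0.48. Above 58% GC the only members were Pcdh8 and Pcdh1, with a median of 1.44. All tested genes of that range had a median of 0.44 and an upper quartile of 0.74. GC trend removal brought Pcdh1 from 1.33 to 0.92, where it was still called (limma adjusted p = 0.0223), and Pcdh8 also kept its call. Over all 6 ranges of GC content, 39 of 43 members were above the median of the tested genes of their range and 32 were above the upper quartile. Genes of a cluster resemble each other, so these counts are descriptions. With the GC trend removed, the median was 0.54 over gamma genes and 0.41 over beta genes, against −0.01 over all tested genes, and 6 members were called higher (4.83% of all tested genes were) and 1 lower (5.55% were, and 10.4% in either direction). Of these 6, only Pcdh8 and Pcdh10 were still called without control replicate 9.

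**Figure D5:**
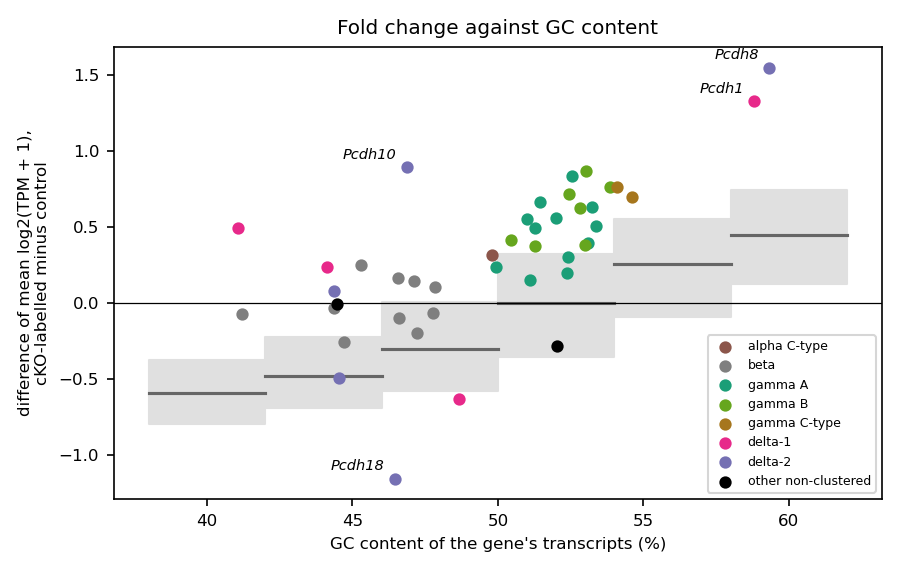
Mean log2(TPM + 1) of the cKO-labelled pair minus that of the controls (y axis), against GC content of the gene's transcripts in percent (x axis), with each point 1 tested protocadherin coloured by subfamily. Grey boxes span the quartiles and dark lines the median of all tested genes in each GC range, and most points lie above the dark line of their range, with Pcdh18 and Pcdh7 among those below.

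Gene structure, which the rule did not use, bears on decay by NMD. In GENCODE M21, coding transcripts of beta genes have 1 exon and so no junction, and those of alpha and gamma genes have 4 exons with the stop codon in the last. In no member did the last junction lie after the stop codon of the main coding transcript. Transcripts annotated as NMD substrates were listed for 6 members, namely Pcdha6, Pcdhgc3, Pcdh7, Pcdh11x, Pcdh19 and Pcdh15. The 4 of these that were tested (Pcdhgc3, Pcdh7, Pcdh11x and Pcdh19) were not called (limma), and they lay on both sides of the controls. Annotated 3′ untranslated regions were 2404 bases in alpha genes and mostly 1747 bases in gamma genes, both encoded by the shared last exon.

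Genes that regulate promoter choice in the clusters were looked up as a list of 17, covering CTCF, cohesin and its loaders, DNA methyltransferases and silencing factors. None was called (limma, 0 of 17). At an unadjusted p under 0.05 there were 3, where 22.8% of all tested genes were. The median log2 difference of the 17 was −0.49, beside −0.16 for all tested genes. The most abundant were Trim28, a corepressor, at 797 and 705 against 801 and 446 TPM, and Uhrf1, which maintains DNA methylation, at 331 and 276 against 351 and 288 TPM. Both overlapped between the groups. A further 4 genes are named after their values were seen. Of these, the smallest p-values belonged to Stag2, a cohesin subunit, at 26.1 and 38.4 against 38.2 and 86.2 TPM (−0.84, adjusted p = 0.125), to Wapl, which releases cohesin, at 27.0 and 32.2 against 38.3 and 70.5 TPM (−0.80, adjusted p = 0.1497), and to Hdac1, a deacetylase, at 93.9 and 94.8 against 125 and 204 TPM (−0.75, adjusted p = 0.163). In each of these, control replicate 9 was the highest library. Ctcf, the looping factor, was at 75.7 and 79.1 against 83.3 and 143 TPM (−0.49, adjusted p = 0.382). Over all tested genes of like GC content, the median was −0.59 for the range of Stag2 and −0.48 for that of Wapl. It was −0.30 for the range of Ctcf and 0.00 for that of Hdac1.

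Cytoplasmic partners of protocadherins formed a list of 24 genes, of which 22 were tested and none was called (limma, 0 of 22). At an unadjusted p under 0.05 there was 1, where 22.8% of all tested genes were. The median log2 difference of the 22 was −0.04, beside −0.16 for all tested genes. The smallest p belonged to Cyfip2, named after its value was seen, a subunit of the WAVE actin regulator that protocadherin tails recruit, at 130 and 101 TPM in the cKO-labelled pair and 63.7 and 55.3 TPM in the controls (0.94, adjusted p = 0.0682). The most abundant partners were Marcks, an actin-binding protein downstream of gamma protocadherins, at 846 and 807 against 768 and 1012 TPM, and Ppp1ca, the catalytic subunit of protein phosphatase 1, at 785 and 749 against 806 and 492 TPM. Both overlapped between the groups.

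Other cadherins gave 3 genes called higher and 1 called lower among 24 tested of 31 (2.90% and 5.24% of all tested genes were called). Their median log2 difference was 0.41, beside −0.16 for all tested genes. Cdh22 rose from 5.50 and 4.12 TPM in the controls to 26.1 and 14.8 TPM (1.84, limma adjusted p = 0.000123). Celsr3, a seven-pass cadherin of axon tracts, was at 63.5 and 66.3 against 36.8 and 22.7 TPM (1.14, adjusted p = 0.0222), and Cdh4, or R-cadherin, at 76.9 and 60.3 against 39.4 and 23.8 TPM (1.13, adjusted p = 0.0238). Cdh3, or P-cadherin, was at 0.0224 and 0.0207 against 3.16 and 1.58 TPM (−1.68, adjusted p = 7.06e-06). In these 4 genes the groups did not overlap. Over all tested genes of like GC content, the median was 0.44 for the range of Cdh22 and Celsr3. It was 0.25 for the range of Cdh4 and 0.00 for that of Cdh3. The part of GC content in these differences was not tested. Both cKO-labelled libraries were above both controls in 13 of the 24 (23.5% of all tested genes) and below both in 5 (34.1%).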

How the data were processed

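The submitters' processing notes name STAR and the mm10 build, and the labels' protocols name TRIzol extraction, DNase treatment, a RIN of at least 9 and a stranded total RNA kit. How reads were counted, with which strand setting and annotation, was not given in the sources used here. One TPM table was deposited by the authors, and each of its 4 columns sums to 1000000. TPM was multiplied by GENCODE M21 exon length and divided by a step fitted in each library, which gave the reads per library. The result was a whole number, within 0.05 reads, for 100% of the values above 0 that were checked. The highest counts were not checked, and 349 genes without an M21 length were left out. In neither group did the libraries agree within sampling noise (chi-square per gene of 33.0 between the cKO-labelled and 211 between the control libraries), so each counted as 1 sample. Pairs across the groups were not compared in this way. A value of 0 allows up to 3 reads, for counting error only.

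Log2(TPM + 1) was tested two-sided with limma 3.58.1 in R 4.3.3 (empirical Bayes with intensity trend, no covariates), over genes of mean TPM at least 1. Because limma's prior degrees of freedom came out infinite, each SE is the pooled trend and not the gene's own replicates. An exact permutation test of 2 against 2 libraries has a smallest p of 0.333 and was left out. GC trends were removed per library with lowess (span 0.3).

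Subfamilies follow gene names. Named are members of mean TPM at least 1 or reaching 1 TPM in a library, with values per library for called members and the 2 most abundant of each subfamily, and called or the 2 most abundant genes of each list. The members, the lists and the tests were chosen with earlier results of these data known.

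Alternatives were pseudocounts of 0.1 and 0.5, no filter, a minimum mean of 5 TPM, robust estimation, no intensity trend, quantile normalization, median-of-ratios scaling, GC trend removal, and leaving out each library. GC trend removal without control replicate 8 or 9 was added after seeing the data.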

Additional observations from a re-analysis of the deposited data

How the results depend on the processing

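No paired analysis was possible because the groups share no replicate number. Against 2 members called higher, there were 0 with no filter on low TPM (0.0153% of all tested genes were called higher), 4 under median-of-ratios scaling (5.11%), 6 under quantile normalization (4.73%), 6 after GC trend removal (4.83%), 8 after GC trend removal without control replicate 8 (9.55%), and 0 to 8 leaving out 1 library. The 8 of 43 without control replicate 8 stand against 18.7% of all genes. Against 1 called lower, there were 0 with no filter (0.666%), 0 under quantile normalization (3.54%), 0 after GC trend removal without control replicate 9 (3.92%), and 0 to 2 leaving out 1 library (2 without control replicate 8, 30.1%). All genes called were 1229, and 178 with no filter, 642 at a mean TPM of at least 5, 2773 after GC trend removal without control replicate 8, and 176 to 7379 leaving out 1 library (176 without cKO-labelled replicate 4, 269 without 5, 7379 without control replicate 8). A lone library is assumed to vary like the other group. Calls in the higher direction were 35.6% of all calls, 52.6% under median-of-ratios scaling, 57.2% under quantile normalization and 46.6% after GC trend removal, and the median of all genes moved from −0.16 to −0.01 in these 3. The members' median of 0.31 became 0.44 with a pseudocount of 0.1, 0.36 with 0.5, 0.21 with no filter, 0.58 at a mean TPM of at least 5, 0.44 under median-of-ratios scaling, 0.63 under quantile normalization, 0.48 after GC trend removal (0.39 without control replicate 9, 0.53 without 8) and 0.31 to 0.36 leaving out 1 library. Under median-of-ratios scaling the ratio of summed TPM rose in every subfamily. It moved from 1.69 to 1.88 for gamma B and from 1.56 to 1.75 for delta-1. It crossed 1 for beta (0.952 to 1.09) and for delta-2 (0.954 to 1.08).

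With no filter, Pcdh8 (adjusted p = 0.105), Pcdh1 (0.182) and Pcdh18 (0.238) lost their calls, and under quantile normalization Pcdh18 did (0.0598). Called without control replicate 8 were also Pcdh19, Pcdhga11, Pcdhgb1, Pcdhgb6, Pcdhgb8, Pcdhgc3 and Pcdhgc4, where 48.8% of all genes were. The cause was not tested. Of 618 alternative values of the 43 members, 528 kept direction and side of the threshold, 14 lost a call (3 genes), 25 gained one (13 genes) and 51 changed sign (15 genes). Leaving out 1 library gave a range through 0 for Upf2 (−0.26 to 0.52, below 0 without cKO-labelled replicate 5 at −0.16 or control replicate 8), Pcdhb7 (−0.10 to 0.39), Pcdhb17 (−0.41 to 0.34), Pcdhb5 (−0.43 to 0.29), Pcdhb4 (−0.36 to 0.16), Pcdhb3 (−0.11 to 0.62), Pcdhb22 (−0.016 to 0.34), Pcdhb9 (−0.28 to 0.50), Pcdhb19 (−0.22 to 0.073), Pcdh9 (−0.13 to 0.61), Pcdhga9 (−0.046 to 0.35) and Pcdh20 (−0.48 to 0.46). The scaling changed the sign of Pcdhb17, Pcdhb5, Pcdhb4, Pcdhb19 and Pcdh20 under median-of-ratios (0.085, 0.044, 0.0029, 0.015 and 0.097) and under quantile normalization (0.27, 0.25, 0.22, 0.26 and 0.33), where Pcdhb20 (0.043), Pcdhb8 (0.13) and Pcdh12 (0.0075) followed. GC trend removal changed that of Pcdhb17, Pcdhb20, Pcdhb5, Pcdhb4, Pcdhb8, Pcdhb19 and Pcdh20 with all libraries (0.42, 0.18, 0.23, 0.26, 0.13, 0.48 and 0.44), without control replicate 9 (0.45, 0.11, 0.36, 0.24, 0.020, 0.25 and 0.55, with Pcdhga9 at −0.016) and without control replicate 8 (0.38, 0.25, 0.098, 0.28, 0.24, 0.71 and 0.33, with Pcdh19 at 0.16).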
